A study of Equus caballus with 26 samples.

Results

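Calprotectin is the pair of small calcium-binding proteins S100A8 and S100A9, and it was examined here together with 8 other genes of the mature neutrophil in the whole blood of endurance horses. The 10 genes were *S100A8*, *S100A9*, *S100A12*, *CSF3R*, *CXCR2*, *MMP9*, *MMP25*, *ARG1*, *NCF1* and *CYBB*. They were a list of symbols chosen with earlier results of these data known, and all 10 were found among the 24415 gene names of an equine array. Blood was drawn into PAXgene tubes before (T0) and after (T1) a ride of 160 km, and RNA from whole blood was hybridized to Agilent arrays of a single colour. The experimental set held 3 horses, numbered 2, 32 and 41, measured at both times, all of them geldings. The validation set held 7 horses at T0 (3 females and 4 geldings) and 13 other horses at T1 (3 females and 10 geldings), so that its comparison was between different animals. Per the methods, both of the study's sets held more horses than these, and the others were not analysed here. All horses had the same breed label, and the study's methods describe its horses as pure or half-bred Arabians. According to the study's methods, the T1 horses had completed the ride, whereas many of the validation horses at T0 were later eliminated from it, so that time and outcome cannot be told apart in that set.

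Neutrophils are the short-lived phagocytes that leave the marrow under granulocyte colony-stimulating factor and follow chemokines into tissue. Calprotectin fills much of their cytosol. Outside the cell it binds zinc and manganese and signals through the Toll-like receptor TLR4, whereas S100A12 is a ligand of the receptor RAGE. Mature neutrophils also carry gelatinase granules with the protease MMP9 and an NADPH oxidase, of which CYBB is the electron-carrying membrane subunit and NCF1 a cytosolic organizer. Monocytes make calprotectin and the NADPH oxidase as well. In whole blood, a larger share of neutrophils and more RNA of these genes per neutrophil cannot be told apart.

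The probes of the 3 S100 genes are shown because the results turn on them, and they show what each spot could see. The array header named the EquCab1 build, in which all 3 lay on unplaced sequence (chrUn). The *S100A8* probe, chrUn:82337680-82337739 on the minus strand, held a stretch that encodes a calcium-binding EF-hand loop of 12 codons, given in capitals. The probes of *S100A9* (chrUn:82303474-82303533, plus strand) and *S100A12* (chrUn:82313880-82313939, minus strand) held a polyadenylation signal, given in capitals within the 30 bases that are printed, a signal that lies near the end of a transcript.
S100A8: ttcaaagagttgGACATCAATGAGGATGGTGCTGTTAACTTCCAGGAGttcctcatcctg
S100A9: cttagctgaaggatgaAATAAAgtcttcct
S100A12: gacgtgagcgttAATAAAtgtacttttgaa
In the RefSeq gene table of a later horse assembly, *S100A8*, *S100A12* and *S100A9* followed each other on chromosome 5 with no gene listed between them. The 5 *S100A12* probes were shifted against each other by a single base, so their values are repeats of a measurement and not separate evidence. Their T1 minus T0 differences lay between 2.16 and 2.27 in the validation set.

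A pair of other genes had probes that did not all read alike, and they are shown because the choice of probe sets the value. *CXCR2* was read by a bright probe with a polyadenylation signal in capitals (chr6:7865742-7865801, 30 bases printed) and by a probe near the start of its reading frame (chr6:7862452-7862511). *MMP9* was read by a probe at chr22:34986660-34986719 and by a probe with no position in the files.
CXCR2, bright probe: ttaagagagacaATTAAAtgcttttttgta
CXCR2, probe near the start: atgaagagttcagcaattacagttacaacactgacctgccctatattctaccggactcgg
MMP9, bright probe: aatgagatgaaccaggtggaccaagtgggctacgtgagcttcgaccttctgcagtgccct
MMP9, other probe: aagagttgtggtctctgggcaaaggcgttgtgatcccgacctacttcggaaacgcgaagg
The bright *CXCR2* probe differed by 1.05 (log2) between T1 and T0 in the validation set, and the probe near the start by 0.41, with r = 0.64 between them over the 26 arrays. The third *CXCR2* probe, directly before the bright one (chr6:7865682-7865741), differed by 1.16 and followed the bright one with r = 0.99. The dim *MMP9* probe was well above background on 14 of 26 arrays, and its difference of 0.24 equalled that of the bright probe. The brightest probe of each gene was used below.

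Levels are log2 processed signals minus the 75th percentile of the array, so that a level can be compared between horses for the same gene and not between genes. Between 60.2% and 75.3% of probes were well above background per array. A pair of libraries needs to be named first. The T0 array of validation horse 47 lay inside the range of the T1 horses for 8 of the 9 genes that could be tested. A horse that differed before the ride and an array that does not belong to its T0 label cannot be told apart here, so changes without it are given as well. The T1 array of validation horse 34 was scanned in a single pass, and its spots for *S100A8*, *S100A9* and *S100A12* were saturated, so that its values of these genes are lower bounds. For *S100A12*, horse 47 (8.0) lay inside the T1 range only through horse 34, without which the lowest T1 level was 8.11. For *CXCR2*, *MMP9*, *NCF1* and *CYBB*, the T0 horses other than 47 overlapped the T1 range as well. The same count over all gene names is not given.

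**Figure D1:**
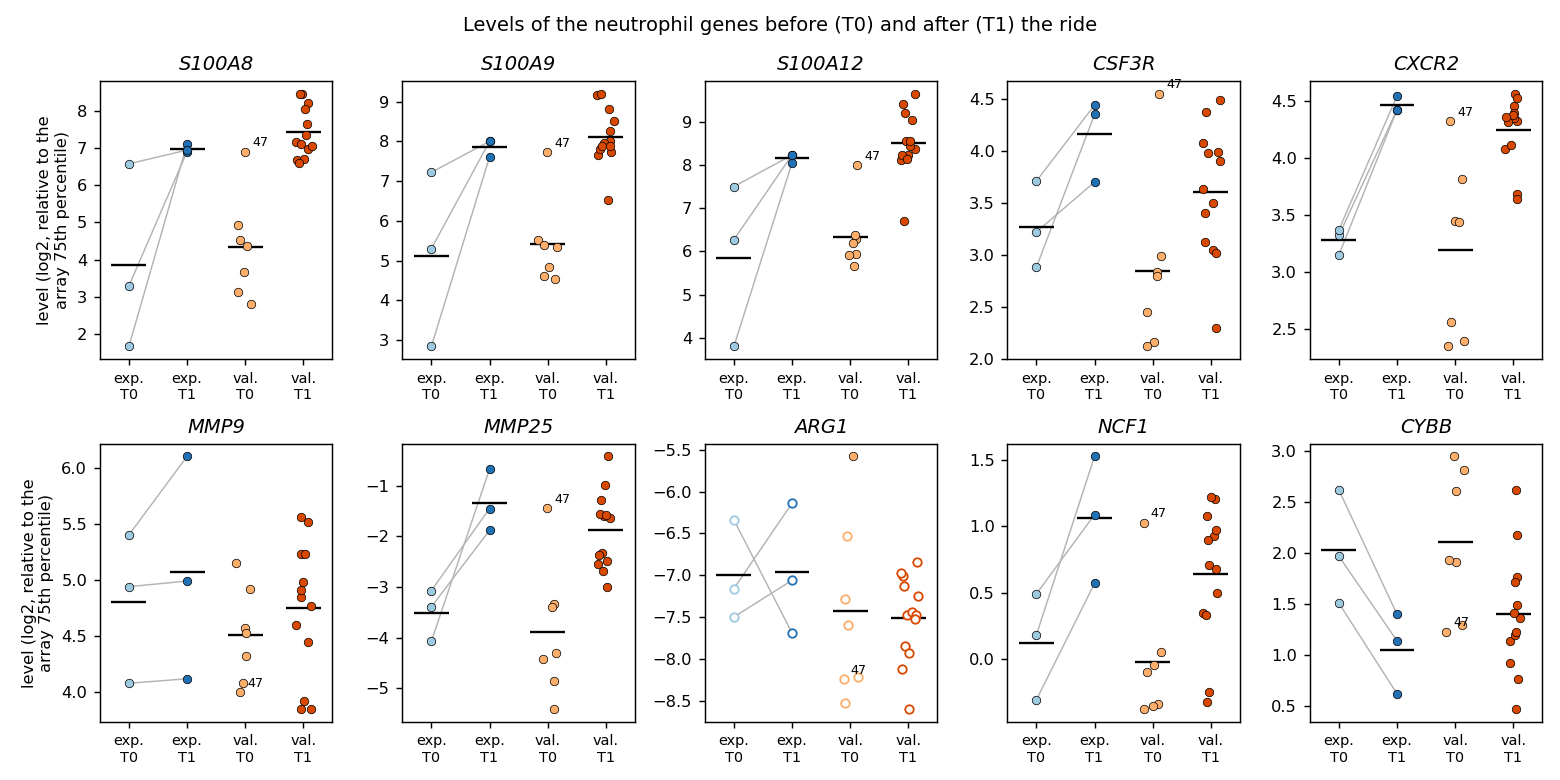
Level of each gene (log2, relative to the array's 75th percentile) in experimental (exp., blue, grey lines join a horse's T0 and T1) and validation (val., orange) horses; bars are group means, open circles are spots not well above background, and 47 marks validation horse 47 at T0. The T1 horses sit above most T0 horses for the S100 genes, *CXCR2* and *MMP25*, *CYBB* runs the other way, and *ARG1* is at background.

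*S100A8*, *S100A9* and *S100A12* were over-expressed at T1 in both sets, though the calls in the experimental set depended on the settings. Of the 11 alternatives tried there, *S100A8* passed under 4 and *S100A9* and *S100A12* under 6 each. *S100A8* was lost under quantile normalization (limma adjusted p = 0.0518) and under normexp with quantile normalization (0.0672), and all 3 genes with the series values (0.0792, 0.058 and 0.0637). In the experimental set, the *S100A8* level was 3.29, 1.66 and 6.58 at T0 in horses 2, 32 and 41, and 6.91, 7.11 and 6.95 at T1. The T0 levels were far apart and the T1 levels close together, and the groups did not overlap. The change was thus 3.61 in horse 2, 5.45 in horse 32 and 0.36 in horse 41, and the fold change was 8.82 (log2 3.14 ± 0.77 SE, limma adjusted p = 0.0397). In the validation set, the *S100A8* level had a lowest value of 2.80, a median of 4.36 and a highest value of 6.91 at T0, against 6.59, 7.17 and 8.47 at T1. Of the 13 T1 horses, 10 lay above every T0 horse, and horse 47 alone among the T0 horses reached into the T1 range. The fold change was 8.53 (log2 3.09 ± 0.42 SE, limma adjusted p = 1.38e-05), and 0.327% of the gene names tested rose by more. Without horse 47, the 6 remaining T0 horses lay between 2.80 and 4.94, and the log2 change was 3.52 ± 0.34 SE.

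*S100A9*, the partner chain of calprotectin, followed the same course. Its level was 5.30, 2.84 and 7.22 at T0 in horses 2, 32 and 41, and 8.0, 7.61 and 8.0 at T1. Horse 41 was again the highest at T0 and changed by 0.79, against 2.70 in horse 2 and 4.77 in horse 32. The validation horses had a lowest, median and highest level of 4.54, 5.35 and 7.72 at T0 and of 6.53, 7.95 and 9.20 at T1, where the lowest value belonged to the saturated array of horse 34. The log2 change was 2.75 ± 0.63 SE in the experimental set (limma adjusted p = 0.0325) and 2.69 ± 0.37 SE in the validation set (limma adjusted p = 1.67e-05). Without horse 47 it was 3.07 ± 0.30 SE, and without horse 34 it was 2.82 ± 0.35 SE.

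*S100A12*, a calcium-binding neighbour of calprotectin, rose in both sets too. Its level was 6.27, 3.80 and 7.50 at T0 in horses 2, 32 and 41, and 8.23, 8.05 and 8.23 at T1. The validation horses had a lowest, median and highest level of 5.66, 6.20 and 8.0 at T0 and of 6.70, 8.43 and 9.65 at T1. Of the 13 T1 horses, 12 lay above every T0 horse, the exception being the saturated array of horse 34. The log2 change was 2.31 ± 0.58 SE (limma adjusted p = 0.0418) and 2.17 ± 0.33 SE (limma adjusted p = 4.06e-05) in the experimental and validation sets, respectively, and 2.45 ± 0.30 SE without horse 47.

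*CSF3R*, the receptor of granulocyte colony-stimulating factor, changed less. It read 2.88, 3.71 and 3.22 at T0 in horses 2, 32 and 41, and 4.35, 4.44 and 3.70 at T1, so that it was higher in 3 of 3 horses while the groups overlapped. Its log2 change of 0.90 ± 0.34 SE did not pass the test in the experimental set (limma adjusted p = 0.118). Among validation horses the lowest, median and highest levels were 2.12, 2.80 and 4.55 at T0 and 2.30, 3.63 and 4.49 at T1, and horse 47 was above all 13 T1 horses. The log2 change of 0.76 ± 0.31 SE was just past the threshold (limma adjusted p = 0.0492), and it passed under 4 of the 12 alternative settings. It was 1.04 ± 0.26 SE without horse 47, but 0.46 ± 0.34 SE with the scan day as a term (limma adjusted p = 0.296), and T1 was higher on 3 of the 5 scan days that held both groups.

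*CXCR2*, the receptor for interleukin-8 and related chemokines, rose in both sets with little spread between the experimental horses. Its level was 3.15, 3.32 and 3.37 at T0 in horses 2, 32 and 41, and 4.42, 4.42 and 4.54 at T1. The change was 1.27, 1.10 and 1.17, and the groups did not overlap (log2 1.18 ± 0.31 SE, limma adjusted p = 0.0454). This call was lost under quantile normalization (limma adjusted p = 0.0839), with the mean of all probes (0.0728) and with no filter (0.173). It was also lost without horse 2, 32 or 41 (limma adjusted p = 0.176, 0.172 and 0.0645). The validation horses had a lowest, median and highest level of 2.35, 3.44 and 4.32 at T0 and of 3.64, 4.35 and 4.56 at T1. The range over horses was thus 1.97 at T0 and 0.92 at T1, and 7 of 13 T1 horses lay above every T0 horse. The log2 change in this set was 1.05 ± 0.23 SE (limma adjusted p = 0.000918), and T1 was higher on 5 of 5 scan days. Without horse 47 the change was 1.24 ± 0.21 SE.

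The metalloproteinases split. *MMP25*, a protease anchored in the neutrophil membrane, had levels of -4.07, -3.39 and -3.07 at T0 in horses 2, 32 and 41, and of -0.67, -1.88 and -1.45 at T1. It rose in 3 of 3 horses without overlap (log2 2.18 ± 0.42 SE, limma adjusted p = 0.0197). In the validation set the lowest, median and highest levels were -5.41, -4.31 and -1.44 at T0 and -3.00, -1.63 and -0.42 at T1, and the change was 2.00 ± 0.42 SE (limma adjusted p = 0.000753). Horse 47 again gave the highest T0 value, and without it the groups did not overlap and the change was 2.40 ± 0.36 SE. *MMP9*, the gelatinase B of the tertiary granules, did not pass in either set. Its level was 5.40, 4.94 and 4.08 at T0 and 6.10, 4.99 and 4.12 at T1 in horses 2, 32 and 41. Its lowest, median and highest levels in the validation set were 4.00, 4.53 and 5.15 at T0 and 3.85, 4.85 and 5.56 at T1. The 95% interval of its change ran from -0.48 to 1.0 in the experimental set and from -0.27 to 0.75 in the validation set, where the change was 0.15 ± 0.26 SE without horse 47.

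The NADPH oxidase subunits differed in direction. *NCF1*, the p47 organizer subunit, read 0.18, 0.49 and -0.31 at T0 in horses 2, 32 and 41, and 1.53, 1.09 and 0.57 at T1. It was higher in 3 of 3 horses, but the change of 0.94 ± 0.32 SE did not pass (limma adjusted p = 0.0938). The lowest, median and highest levels of the validation horses were -0.38, -0.10 and 1.03 at T0 and -0.33, 0.71 and 1.22 at T1, so that the groups overlapped. The highest T0 value was that of horse 47, and the other 6 T0 horses lay between -0.38 and 0.05. The change was 0.66 ± 0.23 SE (limma adjusted p = 0.0232), 0.83 ± 0.21 SE without horse 47 (limma adjusted p = 0.00279) and 0.46 ± 0.28 SE with the scan day as a term (limma adjusted p = 0.194). A second gene name for *NCF1*, with another probe, gave 0.57 ± 0.23 SE (limma adjusted p = 0.0491) and followed the first with r = 0.99 over the 26 arrays.

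*CYBB*, the membrane subunit that carries the electrons, was under-expressed at T1 in the validation set. Its level fell from 1.97 to 1.14 in horse 2, from 2.62 to 1.40 in horse 32 and from 1.51 to 0.62 in horse 41, without overlap, but the change of -0.98 ± 0.31 SE did not pass (limma adjusted p = 0.0786). It passed under 4 of the 11 alternatives, namely quantile normalization (0.0482), normexp with quantile normalization (0.0267), the series values (0.0306) and the filter on every array (0.0452). In the validation set the lowest, median and highest levels were 1.23, 1.93 and 2.95 at T0 and 0.47, 1.36 and 2.62 at T1. There, 5 of 13 T1 horses lay below every T0 horse. The change was -0.70 ± 0.28 SE (limma adjusted p = 0.044), T1 was lower on each of the 5 scan days, and the value was -1.06 ± 0.30 SE with the scan day as a term (limma adjusted p = 0.0116). It was -0.85 ± 0.28 SE without horse 47 (limma adjusted p = 0.0164). With sex as a term it was -0.64 ± 0.28 SE and did not pass (limma adjusted p = 0.0741).

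*ARG1*, the arginase that human neutrophils store in granules, could not be measured. Its only probe was well above background on 1 of the 26 arrays, the T0 array of validation horse 14, and the filter on low signals left it out of the tests. *ARG2*, the mitochondrial arginase from the list of arginine metabolism, was well above background on all 26 arrays and rose by 1.61 ± 0.27 SE in the validation set (limma adjusted p = 9.3e-05).

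Of the 9 genes tested in the experimental set, 5 were over-expressed at T1 and 0 were under-expressed (limma, adjusted p under 0.05), while 7 and 1 had an unadjusted p under 0.05. Of all 17490 gene names tested there, 6.16% rose and 3.95% fell, that is 1077 and 691, and quantile normalization gave 1005 and 1027. The median log2 change of the 9 genes was 1.18, against 0.03 over all gene names. The calls rested on few animals, for these genes as over all gene names. None of the 9 passed without horse 2 and none without horse 32 (6 had an unadjusted limma p under 0.05 in each case). Over all gene names, 0.749% rose and 0.24% fell without horse 2, and 1.22% and 0.435% without horse 32. Without horse 41, 4 passed, beside 9.75% up and 7.28% down over all gene names. When the replicate block that pairs a horse's arrays was left out, 2 passed, beside 5.76% and 4.44%. Of the 9 genes in the validation set, 7 were over-expressed and 1 was under-expressed, where 20.3% of 17405 gene names rose and 23.9% fell. The median log2 change was 1.05, against -0.07 over all gene names. Since the genes were chosen with earlier results of these data known, these comparisons with all gene names are a description only. For 0 of the 9 genes did all T1 horses lie above all T0 horses, which was so for 1.45% of all gene names. Without horse 47 this held for 4 of the 9, the 3 S100 genes and *MMP25*, and for 6.58% of all gene names.

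**Figure D2:**
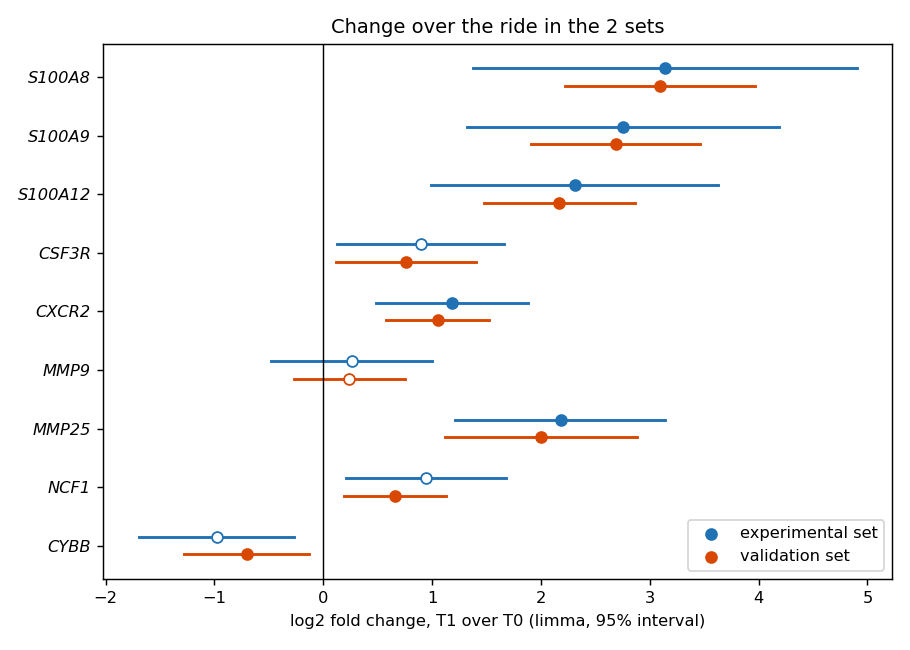
Log2 fold change of T1 over T0 with its 95% interval (limma) for the 9 genes tested, in the experimental (blue) and validation (orange) sets; filled points passed an adjusted p of 0.05. The 2 sets gave changes close to each other, from about 3 for *S100A8* down to below 0 for *CYBB*.

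The change in the experimental set was set against that in the validation set in a single fit of the 26 arrays. None of the 9 genes passed (limma, smallest unadjusted p = 0.542, adjusted p = 1 for each). Over all gene names 0 of 17142 (0%) passed, and 85 had an unadjusted p under 0.05. That is far fewer than the share of 0.05 that chance alone would give. The fit was thus conservative, and its lack of calls does not show that the sets were alike. The intervals were wide: for *S100A8* the difference was 0.05 with a 95% interval from -2.08 to 2.17, for *CXCR2* it was 0.13 with an interval from -0.75 to 1.02, and for *CYBB* it was -0.28 with an interval from -1.41 to 0.86. A difference of severalfold between the sets was therefore not detectable for the S100 genes.

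Over the 16 T1 horses the genes fell into separate blocks. Of the 36 pairs of the 9 genes, 6 were correlated after Benjamini-Hochberg adjustment (two-sided permutation test, 100000 resamples), all 6 positive, and the median r over the 36 pairs was 0.11. The weakest of the 6 had r = 0.70, which 2.73% of all pairs of the 13420 gene names well above background on every T1 array reached, and the median over those pairs was 0.01. The 6 pairs formed a calprotectin block and a block of *CSF3R*, *MMP25* and *NCF1*.

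In the calprotectin block, *S100A9* and *S100A12* had r = 0.97 and rho = 0.82 (adjusted permutation p = 0.00036 and 0.00576). Without the 2 horses farthest from the median of *S100A9*, r was 0.94, and over the 13 validation horses alone it was 0.97. Among the 14 horses that shared a scan day with another T1 horse, with each day's mean removed, r was 0.96. *S100A8* and *S100A9* had r = 0.78 and rho = 0.71 (adjusted permutation p = 0.0024 and 0.0228). This r was 0.65 without the 2 farthest horses, 0.79 in the validation horses, 0.92 without the saturated horse 34, and 0.52 within scan days. *S100A8* and *S100A12* had r = 0.71 and rho = 0.63 (adjusted permutation p = 0.00569 and 0.0736), with 0.62 without the 2 farthest horses, 0.87 without horse 34 and 0.37 within scan days. The pairs with *S100A8* depended on the normalization and on the saturated array. Under quantile normalization their r was -0.09 with *S100A9* and -0.11 with *S100A12* over the 16 horses, and 0.79 and 0.66 without horse 34, a setting chosen after seeing the data. With the series values it was 0.47 and 0.32, and 0.87 and 0.69 without that horse. *S100A9* and *S100A12* had r between 0.85 and 0.97 under each of these settings.

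In the other block, *CSF3R* and *NCF1* had r = 0.82 and rho = 0.79 (adjusted permutation p = 0.0024 and 0.00576). Their r was 0.66 without the 2 farthest horses, 0.79 in the validation horses and 0.86 within scan days. *CSF3R* and *MMP25* had r = 0.77 and rho = 0.79 (adjusted permutation p = 0.00396 and 0.00576), with 0.79 without the 2 farthest horses, 0.81 in the validation horses and 0.88 within scan days. *MMP25* and *NCF1* had r = 0.70 and rho = 0.61 (adjusted permutation p = 0.0166 and 0.0842), with 0.66, 0.67 and 0.72 in the same order. Over the validation horses alone this pair did not pass (adjusted permutation p = 0.0668). All 3 pairs of this block passed under quantile normalization, normexp with quantile normalization and the series values, with r from 0.67 to 0.84.

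Between the blocks, the 9 correlations were all below 0 over the T1 horses, between -0.48 for *S100A8* with *NCF1* (rho = -0.30) and -0.09 for *S100A12* with *MMP25* (rho = 0.03), and none passed (smallest adjusted permutation p = 0.309). Within scan days they lay between -0.81 and -0.39. These values rest on 14 horses with each day's mean removed, which leaves few free values, and they were not tested. All 9 stayed below 0 under quantile normalization, with and without normexp background correction, and 8 of them with the series values, whose highest was 0.01. *CXCR2*, *MMP9* and *CYBB* were correlated with none of the other genes past the threshold. The 3 highest *S100A12* levels, 9.65, 9.42 and 9.21, belonged to validation horses 4, 62 and 21. The arrays of these 3 horses also had the fewest probes well above background of all 26, 61.8%, 60.6% and 60.2%. Horses 4 and 62 also shared a scan day with horse 55 (63.3%), and horse 21 was scanned on another day. Whether the share of probes or the scan day bears on the levels was not tested. In horse 21 *CSF3R* and *NCF1* were at their lowest of all T1 horses, 2.30 and -0.33, whereas horses 4 and 62 had 3.90 and 3.99 for *CSF3R* and 0.71 and 0.68 for *NCF1*, above the validation means of 3.60 and 0.64.

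**Figure D3:**
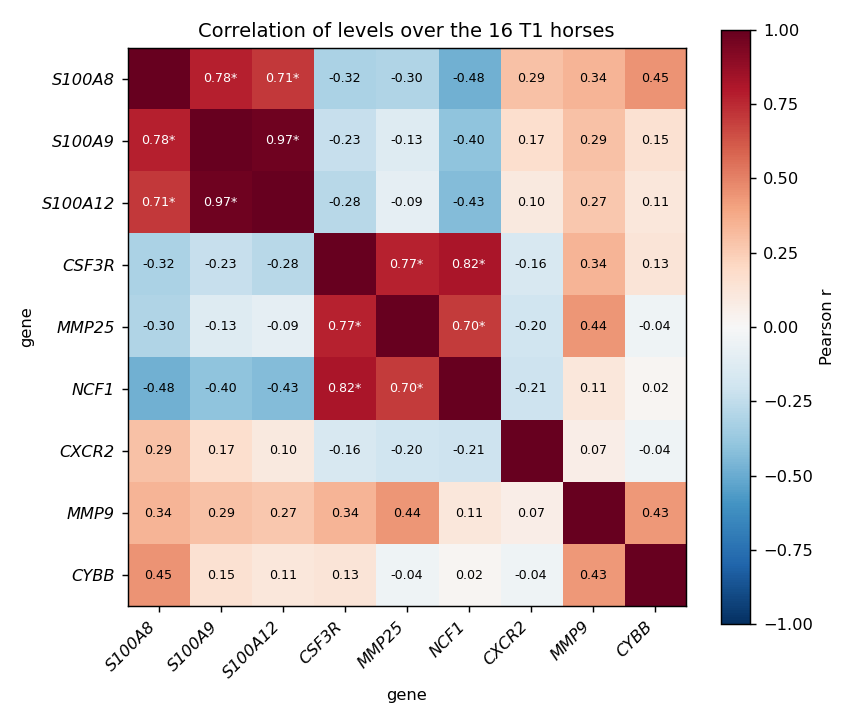
Pearson r between the levels of the 9 measured genes over the 16 T1 horses (3 experimental and 13 validation); stars mark pairs with an adjusted permutation p under 0.05. The S100 genes form a block with r from 0.71 to 0.97, *CSF3R*, *MMP25* and *NCF1* form another with r from 0.70 to 0.82, and the cells between the blocks are below 0; under quantile normalization the pairs of *S100A8* with the other S100 genes fall to -0.09 and -0.11.

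**Figure D4:**
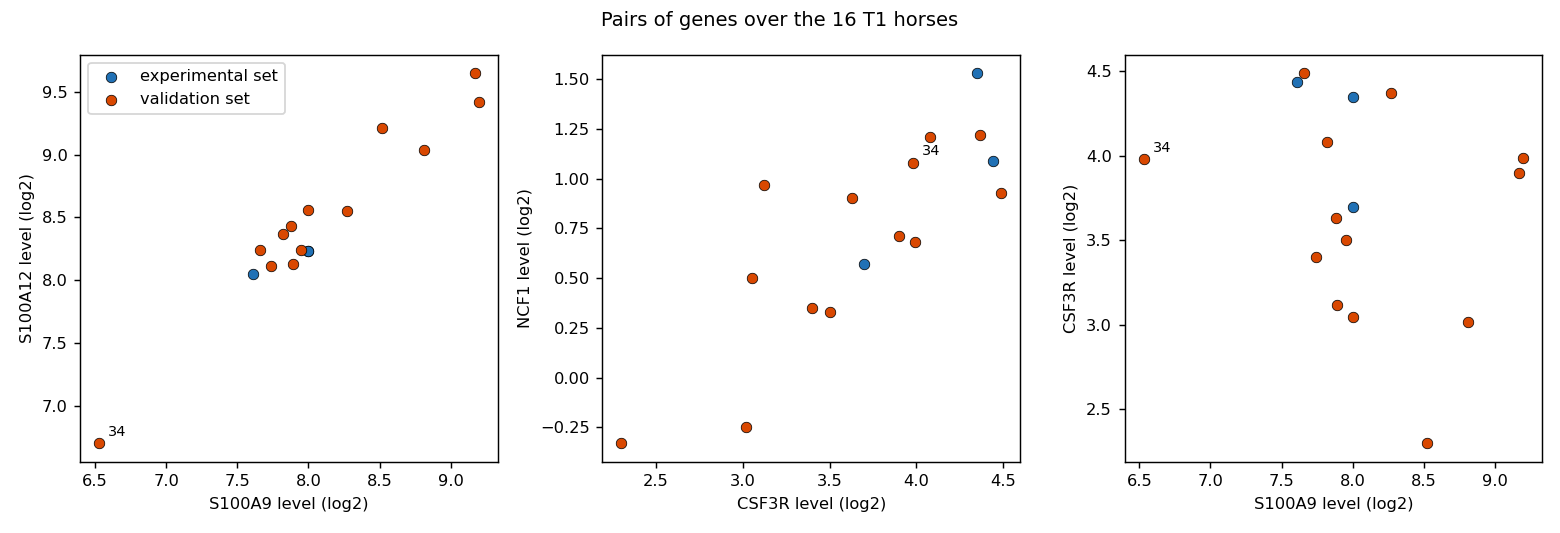
Levels (log2) of 3 pairs of genes in each T1 horse, experimental in blue and validation in orange, with validation horse 34, whose S100 spots were saturated, marked. *S100A12* runs along with *S100A9* and *NCF1* with *CSF3R*, whereas *CSF3R* has no clear course against *S100A9* (r = -0.23).

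The genes whose levels most resembled these patterns were taken from 9379 gene names with a symbol that were well above background on all 16 T1 arrays. Most like the mean of *S100A8* and *S100A9* were *SRP14*, of the signal recognition particle (r = 0.91), *UQCR10*, of respiratory complex III (0.90), the proteasome subunit *PSMB7* (0.88), *SUCLG1*, of succinyl-CoA ligase (0.88), and the mitochondrial ribosomal protein *MRPL27* (0.87). Without horse 34 their r lay between 0.89 and 0.95. None of these 5 passed the test between T1 and T0 in either set, and their log2 changes in the validation set lay between -0.37 and 0.13. Among those most like *CXCR2* were *COPB2*, of the COPI coat (0.89), *MBD6* (0.82), the proteasome activator *PSME4* (0.79) and *EVI2B* (0.78). Of these, *MBD6*, *PSME4* and *EVI2B* rose in both sets, by 1.21, 1.07 and 1.33 in the validation set. These correlations are a description over 16 arrays with no test, since the genes were picked for them.

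The counts of the lists below stand against the 20.3% of all gene names that rose and the 23.9% that fell in the validation set. The receptors that sense S100 proteins rose in part. Of 7 genes of this list, 4 rose and 0 fell in the validation set (median log2 change 1.04). *TLR4*, the receptor of calprotectin, rose by 1.75 ± 0.26 SE, its co-receptor *CD14* by 1.61 ± 0.27 SE and its partner *LY96* by 1.16 ± 0.22 SE (limma adjusted p = 3.76e-05, 8.9e-05 and 0.000285). The fourth was *AGER*, which encodes RAGE. Of 16 other S100 genes on the array 8 could be tested, of which 0 rose and 4 fell (median -0.66), and *S100A2*, *S100A3*, *S100A5*, *S100A14*, *S100A16* and *S100Z* were not well above background on any array. *S100A13* fell by 1.58 ± 0.32 SE, *S100A11* fell by 0.78 ± 0.14 SE and *S100A4* fell by 0.71 ± 0.21 SE in the validation set, whereas *S100P* had a change of 0.82 that did not pass (limma adjusted p = 0.0735).

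Among 14 receptors and adhesion molecules of neutrophils, 10 rose and 0 fell in the validation set (median 1.20). The formyl peptide receptor *FPR2* rose by 2.87 ± 0.31 SE, the amplifying receptor *TREM1* by 2.02 ± 0.47 SE and the leukotriene B4 receptor *LTB4R* by 1.69 ± 0.34 SE. Of 10 metalloproteinases and their partners, 8 rose and 0 fell (median 0.60). The neutrophil collagenase *MMP8* rose by 3.14 ± 0.46 SE, the collagenase *MMP1* by 2.19 ± 0.47 SE and *LCN2*, the lipocalin that binds MMP9, by 2.12 ± 0.50 SE. Of 9 partners of the NADPH oxidase, 3 rose and 1 fell (median 0.04). Of these, the cytosolic subunit *NCF4* rose by 1.09 ± 0.37 SE, and the proton channel *HVCN1* fell by 1.19 ± 0.33 SE. Of 6 transcription factors of neutrophils, 5 rose and 0 fell (median 0.91), the largest changes being those of *CEBPB* at 2.37 ± 0.27 SE, *CEBPE* at 0.97 ± 0.20 SE and *JUNB* at 0.95 ± 0.26 SE. Of 7 genes of arginine metabolism, 2 rose and 1 fell (median 0.33), shares near those of all gene names. *ARG2* and *ODC1* rose, the latter by 0.83 ± 0.22 SE, and *ASL* fell by 0.93 ± 0.24 SE. Fewer genes passed in the experimental set, with its 3 pairs of arrays. There, 3 of 7 sensing receptors, 7 of 14 receptors and adhesion molecules, 4 of 10 metalloproteinases and partners, and 1 of 6 transcription factors rose and 0 fell. Of the 9 oxidase partners 2 rose and 1 fell, of 8 genes of arginine metabolism 1 rose and 1 fell, and of the 8 other S100 genes 1 fell.

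Markers of several blood cell types also differed between T0 and T1, some rising and others falling, and their part in the result was not tested. A list's score is the mean level of its tested genes on an array. Of 8 markers of mature neutrophils outside the 10 genes, 5 rose and 0 fell in the validation set, with a score from -0.73 to 0.81 at T0 and from 0.25 to 1.27 at T1. Of 4 markers of immature neutrophil granules, 3 rose and 0 fell (-3.49 to -0.90 against -0.66 to 1.83). Of 10 monocyte markers, 5 rose and 2 fell (0.98 to 1.92 against 1.85 to 2.58). Of the lymphocyte markers, 9 of 9 for T cells, 6 of 7 for B cells and 5 of 7 for NK cells fell, and 1 NK cell marker rose. Scores ran from 0.01 to 1.53 against -0.76 to 0.21 for T cells, from -0.78 to 0.72 against -2.57 to -0.16 for B cells, and from 0.07 to 2.08 against -0.24 to 0.65 for NK cells. Of 5 basophil and eosinophil markers, 4 fell (-2.67 to -1.57 against -4.62 to -3.67). Of 4 platelet markers none passed (-2.36 to -1.54 against -2.28 to -0.70), and 1 of 3 erythroid markers rose (0.32 to 3.03 against 1.32 to 4.31). *SLC4A1* of the erythroid list was not well above background on any array.

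**Figure D5:**
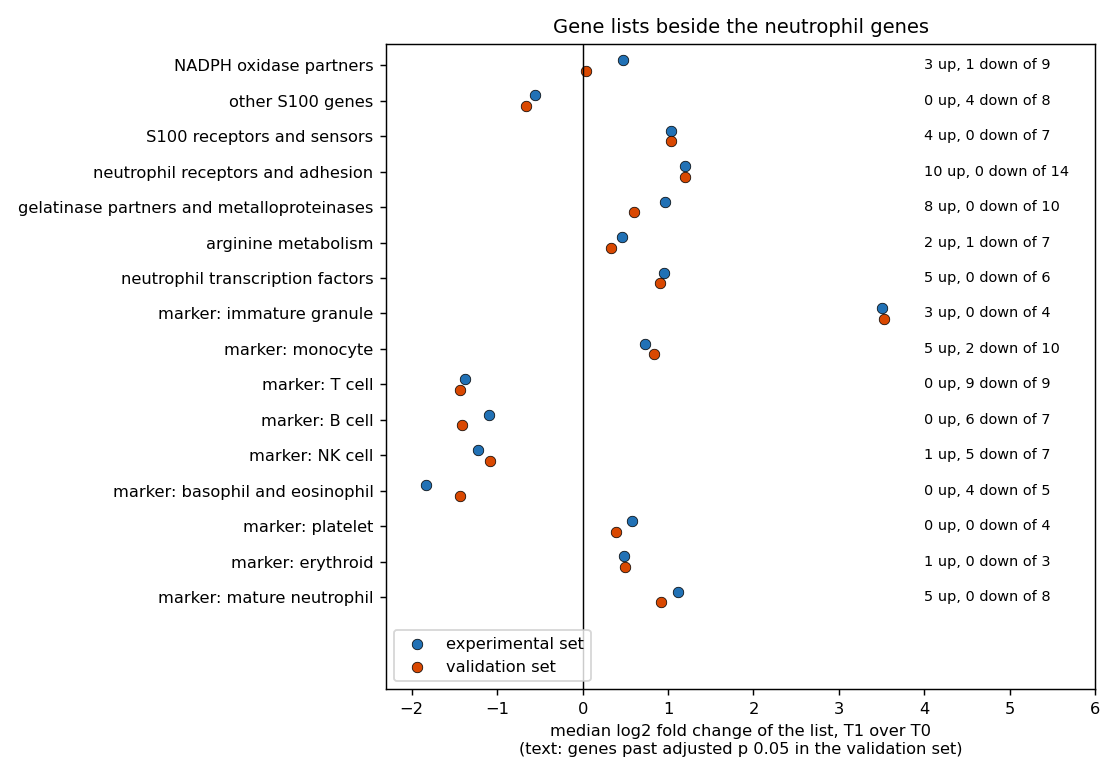
Median log2 change of T1 over T0 over the tested genes of each list in the experimental (blue) and validation (orange) sets, with the number of genes that rose or fell past an adjusted p of 0.05 (limma) in the validation set. The neutrophil and monocyte lists lie above 0, and the lists of lymphocytes, of basophils and eosinophils and of other S100 genes below 0.

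The marker scores were also set against the 9 genes over the 16 T1 horses. Of 81 relations between the 9 genes and 9 marker scores, 3 passed after Benjamini-Hochberg adjustment, and all 3 were with the mature neutrophil score. *CSF3R* had r = 0.92 and rho = 0.91 with it (adjusted permutation p = 0.00081 for both), and r was 0.92 without the 2 farthest horses and 0.91 in the validation horses. *MMP25* had r = 0.87 and rho = 0.86 (adjusted permutation p = 0.00081 and 0.00283), with 0.88 and 0.90. *NCF1* had r = 0.73 and rho = 0.71 (adjusted permutation p = 0.0254 and 0.0761), with 0.84 and 0.70. The corresponding r was -0.21 for *S100A8*, -0.16 for *S100A9* and *S100A12*, and -0.08 for *CXCR2*. The raw p of 1e-05 reached by *CSF3R* is the smallest that the resamples can give. The share of all gene names that reach such r with this score is not given, so these r describe the listed genes only.

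Horse 47 at T0 stood apart in the lists as well as in the genes. Its mature neutrophil score was 0.81, against -0.73 to -0.27 in the other 6 T0 horses, and its monocyte score was 1.92, against 0.98 to 1.75. Its T cell score of 0.01 lay below the 0.84 to 1.53 of the others and inside the T1 range. Its immature granule score of -0.90 was above the other T0 horses and below all T1 horses, and its basophil and eosinophil score of -2.67 was below the other T0 horses and above all T1 horses. With or without this horse, 8 of the 9 genes passed the test in the validation set.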

How the data were processed

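RNA from whole blood (PAXgene) had been labelled with Cy3 and hybridized by the authors to a custom equine Agilent array. The deposited scanner files hold an intensity per spot, processed by Agilent Feature Extraction 10.7.3.1 (background and spatial correction, no normalization between arrays), and the deposited series table holds log2 values whose scale and normalization are not stated in the sources used here. Per the labels, limma was among the submitters' tools. The labels gave each sample its set, horse and time.

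Control spots and 386 outlier spots were left out, spots of a probe were averaged, and the array's 75th percentile (8.74 to 9.76) was subtracted from the log2 signal. The brightest probe stood for a gene name. Symbols came from the gene name, its description, the study's additional files or RefSeq (16001 of 24415 gene names). Gene names well above background on at least 3 arrays (experimental) or 7 arrays (validation) were fitted in R 4.3.3 with limma 3.58.1, helped by statmod 1.5.0, with Benjamini-Hochberg adjustment over all gene names tested and a threshold of 0.05. The horse was a fixed block in the experimental set, as the labels give both arrays of a pair the same animal. Deviations of a horse's 2 arrays had r = -0.00817, 0.212 and 0.192 across genes in horses 2, 32 and 41. Between arrays of different horses r lay between -0.354 and 0.186, so the pairing rests on the labels. The validation set was fitted without a block, and the difference between sets with the horse as a random block over 26 arrays. The horses are separate animals, and their number limits the precision. Arrays lay on 18 slides and 8 scan days.

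On simulated data, 0 of 200 genes changed by 2 (log2) and 166 of 200 changed by 4 were recovered in the experimental design of 17490 gene names, and 142 of 200 changed by 1 and 189 of 200 changed by 2 in the validation design of 17405. Correlations were tested by permutation in Python 3.11.15 (numpy 2.4.6, scipy 1.17.1, pandas 2.3.3), and plots drawn with matplotlib 3.10.9. Alternatives were normexp (offset 50) with quantile normalization, quantile normalization, the series values, the mean of all probes, other filters, all 26 arrays in a single fit, no replicate block, scan day, sex or slide as a term, and single horses left out. Quantile normalization without horse 34, for the correlations, was added after seeing the data. All 10 genes were reported, and of each other list up to 3 genes that passed with the largest change in the validation set; some genes that these rules named are not reported here. The 10 genes and the lists were chosen with earlier results of these data known.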

Additional observations from a re-analysis of the deposited data

Results flagged for a closer look

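The T0 array of validation horse 47 was farther from the other 6 T0 horses than Dixon's limit allows in 4 of the 9 genes that could be examined in this group of 7, where chance gives about 1 in 20. The horse read 7.72 for *S100A9*, where the other T0 horses lay between 4.54 and 5.52. It read 8.0 for *S100A12*, where they lay between 5.66 and 6.38. It read 4.55 for *CSF3R*, where they lay between 2.12 and 2.99, and 1.03 for *NCF1*, where they lay between -0.38 and 0.05. The 4 values come from a single array and are not independent of each other. No gene's change differed between the sets past the threshold.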

How the results depend on the processing

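In the experimental set, 5 of the 9 genes passed, against 3 with the series values, 0 with no filter (limma; 7 of 10 had an unadjusted p under 0.05) and 2 with no replicate block. The 3 with the series values were *CXCR2*, *MMP25* and *CYBB*, of which *CYBB* fell and was not among the 5. Over all gene names, 6.08% rose and 6.71% fell with the series values, and 0.164% and 0.0246% with no filter. Leaving out an experimental horse gave between 0 and 4. Other settings gave between 4 and 6 there, and between 6 and 8 in the validation set, where 8 passed. In the experimental set, *CYBB* gained a call under 4 alternatives. *S100A8* lost its call there under normexp with quantile and under quantile normalization, and *CXCR2* under quantile normalization and with the mean of all probes. *S100A8*, *S100A9*, *S100A12*, *CXCR2* and *MMP25* passed under all 12 alternatives of the validation set. *CSF3R* passed under 4 of the 12. Of the pairs of genes at T1, 3 instead of 6 passed when the 2 horses farthest from the median were left out of each, and 4 to 6 under the others, among them quantile normalization without horse 34 (5), a setting chosen after seeing the data. With all 16 horses, quantile normalization turned the sign of the pairs of *S100A8* with *S100A9* (-0.09) and *S100A12* (-0.11). The sign of *MMP9*, which never passed, turned in the experimental set (-0.04 with normexp and quantile normalization, -0.07 with quantile normalization) and in the validation set (-0.04, -0.03, and -0.01 with the series values). Differences between the sets that were near 0 turned for *CXCR2* (-0.03 with normexp, -0.02 with the series values), *MMP9* (-0.0023 with normexp, -0.04 with quantile normalization), *S100A8* (-0.02 with quantile normalization) and *CSF3R* (-0.0029 with quantile normalization). The cause of these shifts was not tested. With 3 horses per group at a time, a log2 change of 2 was below what the experimental design recovered on simulated data. The simulation held 200 changed genes, fewer than passed in these data, and no horse effect, so it sets no detection limit here. *CXCR2* passed in this set with a log2 change of 1.18. *ARG1* was limited by signal, since its probe was not well above background. The change on each scan day was given as a value only.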

Other observations

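The horses of the experimental set differed more before the ride than after it in the S100 genes. The SD over the 3 horses was 2.51 at T0 and 0.11 at T1 for *S100A8*, 2.20 and 0.23 for *S100A9*, and 1.89 and 0.10 for *S100A12*. For *CXCR2* it was 0.11 and 0.07, and for *MMP9* 0.67 and 1.0. Horse 41 had the highest T0 level of all 3 S100 genes (6.58, 7.22 and 7.50), each above 6 of the 7 validation T0 horses, while its *NCF1* level was the lowest of the 3 horses. In the validation set the SD at T0 was 1.37 for *S100A8*, 1.08 for *S100A9* and 0.77 for *S100A12*, and 0.84, 0.43 and 0.27 without horse 47, against 0.68, 0.71 and 0.74 at T1, so that without this horse *S100A9* and *S100A12* varied less at T0 than at T1. These spreads were not tested.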
